A study of Homo sapiens with 12 samples.

Results

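The metallothionein genes MT2A, MT1X, MT1F, MT1E and MT1G were followed as 5 rows, matched by symbol, out of 25369 genes with values in all 12 libraries. The family was chosen by a measured value, the difference between the enrichments of MT2A in the TNIP2 and Control purifications, so the MT2A values are given as a description, with no test. The RNA came from HEK293T, a human embryonic kidney line that the growth description names HEK293. All cells carried a transfected plasmid: one for Halo-TNIP2 196-346, a fragment of the NF-κB pathway adaptor TNIP2 joined to the Halo tag, or one for the Halo tag alone (Control). Each construct gave RNA from material purified through the tag (Pulldown) and from the whole cell extract (Input). The 4 groups are therefore TNIP2 Pulldown, TNIP2 Input, Control Pulldown and Control Input, with 3 libraries each. The sources used here give no age of culture, dose of plasmid or time after transfection, and separate transfections are not recorded. The p-values therefore reflect only the variation among these libraries, and that variation may be technical. A Pulldown library shows the share each RNA takes of the purified material, and more RNA of a gene cannot be told apart from less RNA of other genes.

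Metallothioneins are small, cysteine-rich proteins that bind zinc and copper and sequester cadmium. Zinc activates the transcription factor MTF1, which binds metal response elements in the promoters of these genes, and glucocorticoids and oxidative stress also raise their transcription. The functional human genes lie together on chromosome 16; MT2A is the main isoform in many cell types, MT1X, MT1F, MT1E and MT1G are isoforms of the MT1 group, and all have very similar coding sequences. How the authors' counting treated reads shared by near-identical copies is not given in the sources used here, so the split of reads between members is uncertain.

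The promoters of the 2 most abundant members are shown because they carry the element through which zinc acts on the family. They are the 250 bases before the gene start in RefSeq (GRCh38.p14, plus strand, written 5′ to 3′), at chr16:56608334-56608583 for MT2A and chr16:56682220-56682469 for MT1X. Capitals mark matches to the core of the metal response element, spelled TGCGCNC or TGCACNC on either strand.
MT2A: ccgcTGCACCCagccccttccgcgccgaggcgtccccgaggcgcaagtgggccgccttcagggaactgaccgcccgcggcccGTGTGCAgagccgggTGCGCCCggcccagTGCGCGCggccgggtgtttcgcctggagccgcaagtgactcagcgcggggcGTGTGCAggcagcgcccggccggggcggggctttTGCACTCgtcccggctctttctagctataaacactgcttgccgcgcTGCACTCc
MT1X: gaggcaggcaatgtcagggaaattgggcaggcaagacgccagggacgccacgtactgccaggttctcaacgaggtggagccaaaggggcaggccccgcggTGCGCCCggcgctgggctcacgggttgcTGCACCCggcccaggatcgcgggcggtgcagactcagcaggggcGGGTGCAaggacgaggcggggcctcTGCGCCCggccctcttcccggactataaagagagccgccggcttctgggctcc
The MT2A promoter held 7 matches and the MT1X promoter 4, none overlapping another. At least 1 match stood in 24.8% of 35116 RefSeq promoters of this length, at least 4 in 0.370% and at least 7 in 0.0313%. Both promoters held TATAAA, found in 10.7% of promoters, starting at -29 in MT2A and -30 in MT1X. TGANTCA, the AP-1 spelling present in 6.57% of promoters, matched in MT2A, starting at -104, and had no match in this window of MT1X. A match is a stretch of letters and not a measured binding site. The table of promoters used here was not matched by MT1E, MT1F or MT1G.

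MT2A RNA was abundant in the TNIP2 Pulldown and at like, moderate levels in the other 3 groups. Its normalized count, a read count that the authors scaled for library depth, was 1698, 1865 and 1077 in the TNIP2 Pulldown libraries, 126, 89 and 134 in TNIP2 Input, 77, 120 and 81 in Control Pulldown and 113, 123 and 110 in Control Input. Every TNIP2 Pulldown library stood above all 9 others, and the ranges of the other 3 groups overlapped. Among the tested genes defined below, TNIP2 Pulldown lay wholly above TNIP2 Input in 29.4% and wholly above Control Pulldown in 31.5%. TNIP2 Pulldown replicate 3 was the lowest of its group. On the per-length scale of FPKM (deposited values scaled by gene length and depth), MT2A averaged 325 ± 87.1 in TNIP2 Pulldown, 24.4 ± 5.02 in TNIP2 Input, 19.5 ± 4.99 in Control Pulldown and 24.2 ± 1.45 in Control Input (SD, n = 3 each). The mean of MT2A lay above 98.6% of the 14627 tested genes in TNIP2 Pulldown, against 78.1% in TNIP2 Input, 73.2% in Control Pulldown and 78.0% in Control Input. Tested genes are those that reached 10 normalized counts in 3 or more libraries.

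MT1X, at nearly the same level as MT2A in the Input fractions, did not share this pattern. Its normalized count was 119, 121 and 54 in TNIP2 Pulldown, 115, 103 and 132 in TNIP2 Input, 40, 74 and 71 in Control Pulldown and 123, 109 and 89 in Control Input. The TNIP2 Pulldown libraries overlapped every other group, with replicate 3 again the lowest of its group, while all Control Pulldown libraries lay below all Control Input libraries. Its FPKM averaged 21.3 ± 8.33 in TNIP2 Pulldown, 25.4 ± 3.10 in TNIP2 Input, 13.4 ± 4.05 in Control Pulldown and 23.2 ± 3.74 in Control Input (SD, n = 3 each).

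MT1F was a low gene throughout. Its normalized count was 18, 12 and 4 in TNIP2 Pulldown, 21, 23 and 21 in TNIP2 Input, 14, 14 and 23 in Control Pulldown and 11, 18 and 20 in Control Input. The TNIP2 Pulldown libraries all lay below the TNIP2 Input libraries and overlapped both Control groups, and the TNIP2 Input libraries all lay above the Control Input libraries. The MT1F values rest on few reads: whole reads recovered from the deposited FPKM were 19, 23 and 3 in TNIP2 Pulldown, 34, 33 and 17 in TNIP2 Input, 5, 9 and 9 in Control Pulldown and 21, 23 and 31 in Control Input. MT2A was read far more often in TNIP2 Pulldown, with 1777, 3653 and 879 reads, but with 27, 75 and 32 reads in the shallower Control Pulldown.

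**Figure D1:**
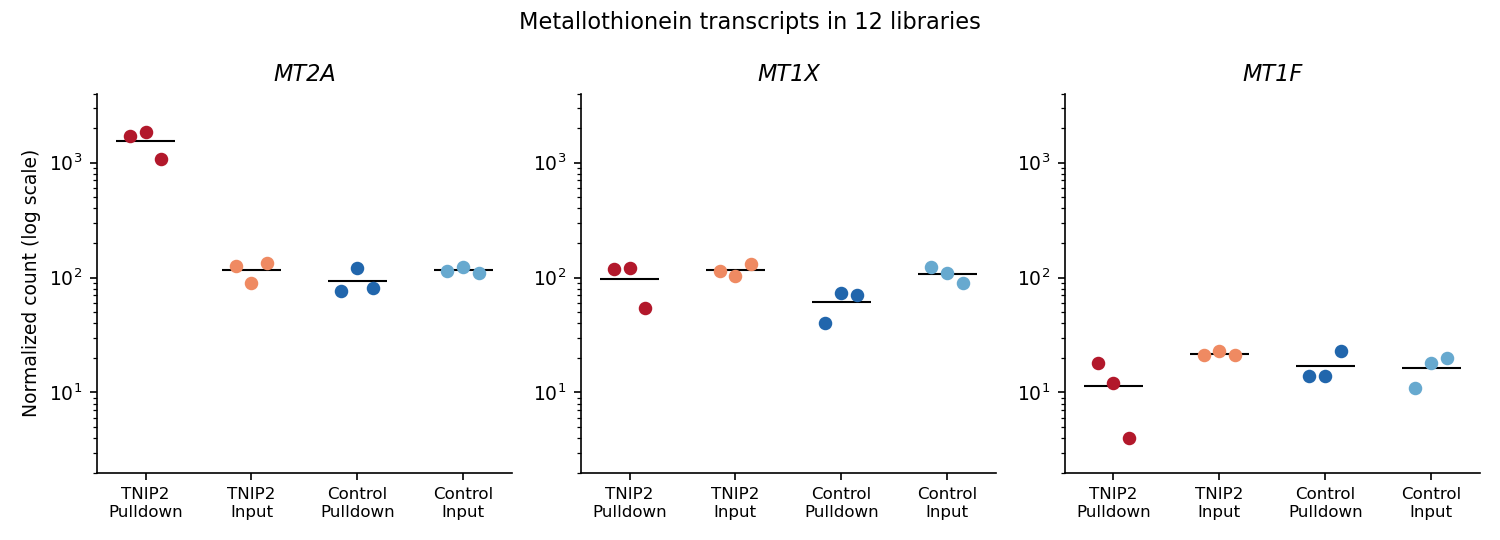
Normalized count of MT2A, MT1X and MT1F (log scale) in TNIP2 Pulldown, TNIP2 Input, Control Pulldown and Control Input; each point is 1 library and each line the mean of 3. MT2A lies between 1077 and 1865 in TNIP2 Pulldown, above all 9 other libraries, whereas the MT1X libraries of TNIP2 Pulldown, from 54 to 121, overlap every other group.

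MT1E and MT1G did not pass the filter on low values and were not tested. MT1E had a normalized count of 1 in Control Input replicate 1, taken as 1 read, the lowest number that fits, and was listed at 0 elsewhere. MT1G had 1 read each in TNIP2 Pulldown replicates 1 and 2 and was listed at 0 elsewhere. At the measured depths, 3 reads (the limit that a count of 0 allows, for counting error only) equalled 1.53 to 8.59 normalized counts. A count of 0 therefore does not exclude a level below that. The tables held 16 metallothionein rows in all, and 7 of them (MT1B, MT1DP, MT1H, MT1HL1, MT1IP, MT1JP and MT1L) were at 0 in every library. The 13 rows that were not tested held 13 reads together, and none exceeded 4 normalized counts in any library, among them MT1A, MT1M, MT3, the brain isoform, and MT4, the isoform of stratified epithelia.

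Within the same library, where library depth cancels, MT2A and MT1X were nearly equal in the Inputs and far apart in the TNIP2 Pulldown. The ratio of MT2A to MT1X FPKM was 13.7, 14.9 and 19.3 in TNIP2 Pulldown, 1.06, 0.833 and 0.982 in TNIP2 Input, 1.86, 1.57 and 1.10 in Control Pulldown and 0.885, 1.09 and 1.20 in Control Input. TNIP2 Pulldown replicate 3, the lowest of its group for both genes, had the highest ratio. MT2A took 93.5 ± 1.20% of the reads of all 16 metallothionein rows in TNIP2 Pulldown and 45.1 ± 3.35% in TNIP2 Input. Its share was 54.3 ± 6.84% in Control Pulldown and 48.4 ± 2.58% in Control Input (SD, n = 3 each). The summed FPKM of these 16 rows was 348 ± 96.4 in TNIP2 Pulldown and 54.6 ± 8.23 in TNIP2 Input. It was 36.3 ± 8.18 in Control Pulldown and 50.9 ± 3.84 in Control Input. Because MT2A chose the family, no test is attached to these ratios and shares.

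**Figure D2:**
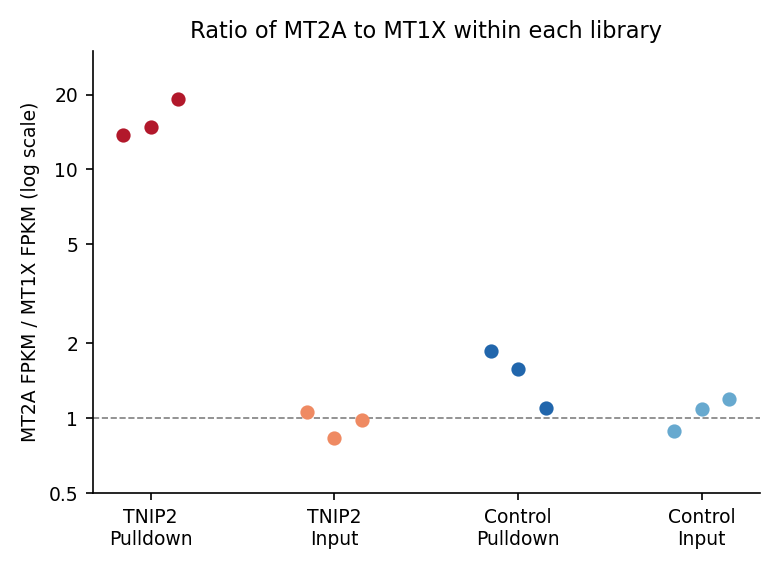
Ratio of MT2A FPKM to MT1X FPKM (log scale) in each library of the 4 groups, with a dashed line at 1. The 3 TNIP2 Pulldown libraries lie between 13.7 and 19.3, and the other 9 between 0.833 and 1.86.

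By level per length, the members ordered as MT2A, MT1X and MT1F in TNIP2 Pulldown, Control Pulldown and Control Input, and as MT1X, MT2A and MT1F in TNIP2 Input. MT1F, with mean FPKM of 2.23 in TNIP2 Pulldown, 4.31 in TNIP2 Input, 3.42 in Control Pulldown and 3.23 in Control Input, stood below every MT1X and MT2A library of the same group. MT2A and MT1X, neighbours in that order, overlapped in their libraries in TNIP2 Input and Control Input, and did not overlap in either Pulldown group.

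The comparisons of fractions and constructs used log2(normalized count + 1) of all 12 libraries in 1 fit, and a gene was called at a Benjamini-Hochberg adjusted p under 0.05 in limma's two-sided test over the tested genes. A log2 change is understated by the pseudocount where counts are low. The fit gives each gene a single spread shared by the 4 groups. It can be too wide for groups whose libraries vary less and too narrow for those that vary more. Between TNIP2 Pulldown and TNIP2 Input, 29.8% of tested genes were called higher and 28.3% lower, 58.1% in all, so a call is common in this comparison. MT2A was higher in TNIP2 Pulldown than in TNIP2 Input by a log2 change of 3.70 (SE 0.24), or 13.0-fold, which ranked 2 of 14627, just after CMTM8 at 3.73 and just before KAL1 at 3.70. The members MT1X and MT1F were not called: MT1X differed by a log2 change of -0.33 (SE 0.31, 95% interval -0.995 to 0.33, limma adjusted p = 0.377). MT1F differed by -1.08 (SE 0.45, 95% interval -2.03 to -0.12, limma adjusted p = 0.0508). With same-numbered TNIP2 libraries paired as a replicate block and only these groups fitted, MT1F passed (limma adjusted p = 0.0275). Without TNIP2 Pulldown replicate 3 its log2 change was -0.53 (limma adjusted p = 0.234) and without replicate 1 it was -1.49 (limma adjusted p = 0.0142), so its call depends on single libraries. All TNIP2 Pulldown libraries lay below all TNIP2 Input libraries, as seen for MT1F, in 28.1% of tested genes, and above them, as seen for MT2A, in 29.4%.

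Between the purifications of the 2 constructs, TNIP2 Pulldown and Control Pulldown, 30.6% of tested genes were called higher and 28.7% lower, 59.4% in all. MT2A was higher in TNIP2 Pulldown by a log2 change of 4.04 (SE 0.24), or 16.4-fold, rank 8 of 14627. The libraries of MT2A did not overlap between these groups, as for 31.5% of tested genes in that direction and 29.5% in the other. MT1X and MT1F again did not pass: MT1X had a log2 change of 0.62 (SE 0.31, 95% interval -0.04 to 1.28, limma adjusted p = 0.0988). Without TNIP2 Pulldown replicate 3, MT1X was higher by 1.00 and passed (limma adjusted p = 0.00456). MT1F had a log2 change of -0.71 (SE 0.45, 95% interval -1.67 to 0.25, limma adjusted p = 0.186), which was -0.16 without TNIP2 Pulldown replicate 3 and -1.12 without replicate 1 (limma adjusted p = 0.728 and 0.0514). This comparison and the previous one share the TNIP2 Pulldown libraries.

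Between Control Pulldown and Control Input, purification through the tag alone, 0% of tested genes were called higher and 0.137% lower, and 342 genes had an unadjusted p under 0.05. With only these groups fitted, 1019 genes had an unadjusted p under 0.05, and 4 genes were called higher and 44 lower. The shared spread can thus hide differences here. MT2A had a log2 change of -0.34 (SE 0.24). MT1X had -0.82 (SE 0.31, 95% interval -1.49 to -0.16), at an unadjusted p of 0.0184 and a limma adjusted p of 1, and stood at -0.54 without Control Pulldown replicate 1. All Control Pulldown libraries lay below all Control Input libraries, as for MT1X, in 7.15% of tested genes, and above them in 5.83%. MT1F had 0.06 (SE 0.45) and a limma adjusted p of 1.

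Between TNIP2 Input and Control Input, the extracts before purification, 0.00684% of tested genes were called higher and 0% lower, and 104 genes had an unadjusted p under 0.05. With only these groups fitted, 325 genes had an unadjusted p under 0.05, and 1 gene was called higher and 0 lower. The shared spread can hide differences here too. MT2A had a log2 change of -0.01 (SE 0.24, 95% interval -0.52 to 0.50). MT1X had 0.13 (SE 0.31) and MT1F 0.43 (SE 0.45), both with a limma adjusted p of 1. The libraries of TNIP2 Input lay above those of Control Input without overlap for MT1F, as for 3.62% of tested genes, and below for 5.32%.

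**Figure D3:**
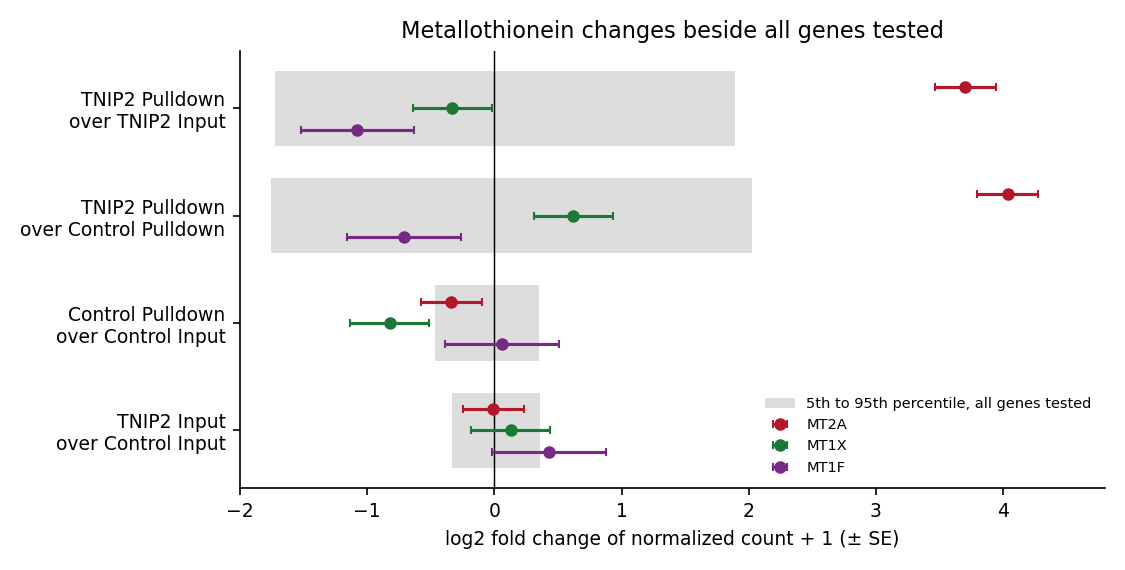
Log2 fold change (± SE of the fit) of MT2A, MT1X and MT1F in the 4 comparisons; grey bars run from the 5th to the 95th percentile of 14627 tested genes. MT2A lies at 3.70 and 4.04 in the comparisons that hold TNIP2 Pulldown and at -0.34 and -0.01 in the others.

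The difference of enrichments, the log2 change of Pulldown over Input for TNIP2 minus that for Control, was 4.04 (SE 0.34) for MT2A. That value chose the family and ranked 5 of 14627, after LOC101929512 at 5.40, KAL1 at 5.09, TICAM1 at 4.19 and OSR1 at 4.08, whose highest group means were between 19.7 and 35.7 normalized counts. SAMSN1, at 4.01, came just after it. Among the 11046 tested genes with a group mean of at least 100, MT2A ranked 1, followed by CMTM8 at 3.76 and SNORD30 at 3.74. The cut at 100 was not set in the plan and leaves out the genes ranked above MT2A, so this rank restates how the family was chosen. The difference was 0.49 (SE 0.44) for MT1X and -1.14 (SE 0.63) for MT1F, given as a description because the family was chosen on this contrast. Without TNIP2 Pulldown replicate 3 it was 0.87 for MT1X and -0.58 for MT1F, and for MT1X it was between 0.21 and 0.31 without Control Pulldown replicate 1 or TNIP2 Pulldown replicate 1 or 2, and -0.081 with libraries centred on ribosomal protein genes. In this difference 22.6% of tested genes were called higher and 20.2% lower, 42.8% in all. The genes set beside MT2A in these ranks were chosen after their values were seen.

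Libraries that carry the same number need not be pairs. By number, the Pulldown to Input FPKM ratio of MT2A was 13.5, 20.9 and 8.04 for TNIP2, and 0.685, 0.973 and 0.732 for Control. The ratio of MT1X was 1.04, 1.17 and 0.410 for TNIP2 and 0.326, 0.677 and 0.797 for Control. The ratio of MT1F was 0.854, 0.506 and 0.179 for TNIP2 and 1.28, 0.818 and 1.15 for Control. The MT2A ratio was above 1 for all 3 TNIP2 numbers and below 1 for all 3 Control numbers, whereas the MT1X ratio was above 1 for TNIP2 numbers 1 and 2 and below 1 for number 3.

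The members are among the shortest genes in the tables, with exonic lengths of 421 bases for MT2A, 406 for MT1X, 443 for MT1F, 500 for MT1E and 391 for MT1G, recovered from the ratio of reads to FPKM. The MT1E length rests on 1 library and on taking its value as the lowest number of reads that fits. The 95 tested genes of 300 to under 500 bases, MT2A, MT1X and MT1F among them, had a median log2 change of -1.18 in TNIP2 Pulldown over TNIP2 Input, with 21.1% called higher and 57.9% lower. The median of all tested genes in that comparison was 0.01. The same length class had a median of -0.74 in TNIP2 Pulldown over Control Pulldown, where the median of all tested genes was 0.03. In Control Pulldown over Control Input, where MT1X stood at -0.82, the class had a median of -0.38 with 11.6% called lower, against a median of -0.01 and 0.137% called lower over all tested genes; the part of length in the MT1X value was not tested.

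By Pearson correlation of log2 normalized counts over the 12 libraries, the 5 genes most like MT2A were ZDHHC7, RPS26, ARPC1A, ATP5I and CALCB, with r between 0.994 and 0.995. ZDHHC7 encodes a palmitoyltransferase, RPS26 a protein of the small ribosomal subunit, ARPC1A a subunit of the Arp2/3 complex, ATP5I a subunit of ATP synthase and CALCB a calcitonin gene-related peptide. ZDHHC7 averaged 4751 ± 898 normalized counts in TNIP2 Pulldown, 847 ± 66.4 in TNIP2 Input, 786 ± 27.5 in Control Pulldown and 846 ± 68.6 in Control Input. The points share the division into 4 groups, and 1007 tested genes had an r of at least 0.95 with MT2A. The r with MT2A was 0.17 for MT1X and -0.51 for MT1F.

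Zinc transporter genes were mostly lower in TNIP2 Pulldown, the opposite direction to MT2A, while the zinc sensor MTF1 was higher. Of 25 listed zinc genes 20 were tested, and in TNIP2 Pulldown over TNIP2 Input 2 were called higher and 13 lower, with a median log2 change of -0.92. In TNIP2 Pulldown over Control Pulldown 1 was called higher and 13 lower, with a median of -0.91. Of all tested genes, 29.8% were called higher and 28.3% lower over TNIP2 Input, and 30.6% and 28.7% over Control Pulldown. SLC30A9, a zinc transporter of mitochondria, averaged 436 ± 32.9 normalized counts in TNIP2 Pulldown, 2739 ± 47.3 in TNIP2 Input, 2950 ± 93.0 in Control Pulldown and 3109 ± 144 in Control Input. Its log2 change was -2.65 over TNIP2 Input and -2.76 over Control Pulldown (limma adjusted p = 5e-09 and 3.1e-09). SLC30A5, which carries zinc into the secretory pathway, was called lower in both as well, at log2 changes of -1.47 and -1.68. The zinc importers SLC39A1 (-2.26 and -2.17) and SLC39A8 (-1.54 and -1.65) were called lower in both.

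MTF1, the zinc-sensing activator of metallothionein transcription, was the zinc gene called higher in both comparisons, and it is named for that role after its values were seen. Its normalized count was 329, 455 and 381 in TNIP2 Pulldown, 190, 225 and 203 in TNIP2 Input, 180, 199 and 232 in Control Pulldown and 155, 167 and 179 in Control Input. All TNIP2 Pulldown libraries lay above the other 9. Such separation was common: they lay above all TNIP2 Input libraries in 29.4% of tested genes and above all Control Pulldown libraries in 31.5%. The share of genes above all 9 was not computed. The log2 change of MTF1 was 0.90 over TNIP2 Input and 0.92 over Control Pulldown. It was 0.28 in Control Pulldown over Control Input and 0.30 in TNIP2 Input over Control Input, not called in either. The difference of enrichments of MTF1, at 0.62, was not called.

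Copper genes were also mostly lower: of 11 tested, 1 was called higher and 7 lower in TNIP2 Pulldown over TNIP2 Input (median log2 change -1.18), and 1 higher and 6 lower over Control Pulldown (median -0.92). The shares over all tested genes were 29.8% higher and 28.3% lower, and 30.6% higher and 28.7% lower. CCS, the copper chaperone of superoxide dismutase, was lower, at -2.20 and -2.39. The transporter SLC31A2 (-1.81 and -1.85), the chaperone ATOX1 (-1.41 and -1.37) and the copper regulator COMMD1 (-1.65 and -1.65) were called lower in both comparisons. The one called higher was COX17, which delivers copper to cytochrome oxidase, at 0.90 and 0.88, named after its values were seen.

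Iron genes showed no common direction, with 1 of 7 called higher and 1 lower over TNIP2 Input (median log2 change 0.40), and 1 higher and 2 lower over Control Pulldown (median 0.09). Over all tested genes the shares were 29.8% higher and 28.3% lower, and 30.6% higher and 28.7% lower. The iron importer SLC11A2 was called lower, at -1.18 over TNIP2 Input and -1.46 over Control Pulldown. FTH1, the ferritin heavy chain, was higher by 1.12 and 1.17, a call that ended under quantile normalization (0.61 and 0.68, limma adjusted p = 0.0859 and 0.0566) and, over TNIP2 Input, with libraries centred on ribosomal protein genes (0.65, limma adjusted p = 0.0845). TFRC, the transferrin receptor, was at -0.46 over TNIP2 Input (limma adjusted p = 0.076, or 0.0524 in the paired fit of these groups alone). With a replicate block over all 12 libraries it was called there (limma adjusted p = 0.0307), which makes 2 iron genes lower. TFRC was lower by -0.60 over Control Pulldown (limma adjusted p = 0.023), a call that ended without TNIP2 Pulldown replicate 2 (limma adjusted p = 0.125), Control Pulldown replicate 1 (0.0818) or Control Pulldown replicate 2 (0.0584). ACO1, an iron-regulated RNA-binding protein, was not called (-0.27 and -0.38).

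Of 11 oxidative stress genes tested, 5 were called higher and 3 lower in both comparisons, with medians of -0.27 over TNIP2 Input and -0.15 over Control Pulldown. Among all tested genes, 29.8% were called higher and 28.3% lower over TNIP2 Input, and 30.6% and 28.7% over Control Pulldown. NFE2L2, the transcription factor NRF2, rose by 1.41 and 1.43 on the log2 scale, its partner MAFG by 1.20 and 1.40, and SRXN1, sulfiredoxin, by 1.04 and 1.26. SLC7A11, the cystine transporter, was called lower, at -0.87 and -1.44. Of 7 glucocorticoid genes tested, 1 was called higher in each comparison and 1 lower over TNIP2 Input, with medians of -0.31 over TNIP2 Input and 0.30 over Control Pulldown. NR3C1, the glucocorticoid receptor, rose by 1.36 and 1.33. DUSP1, a phosphatase induced by glucocorticoids, was lower by -0.68 over TNIP2 Input (limma adjusted p = 0.045, a call that ended in 11 alternatives, up to an adjusted p of 0.224 without TNIP2 Input replicate 3) and at 0.24 over Control Pulldown (limma adjusted p = 0.48). The target kinase SGK1 (-0.31 and 0.47) and the clock gene PER1 (-0.31 and 0.31) were not called in either. None of the genes in these 5 lists was called in Control Pulldown over Control Input or TNIP2 Input over Control Input. Calls were rare there among all tested genes as well, at 0.137% and 0.00684% in either direction. Some small counts moved with 1 library. Over Control Pulldown, zinc genes called higher were 2 without TNIP2 Pulldown replicate 3, TNIP2 Input replicate 2 or 3, or Control Pulldown replicate 3, and iron genes called lower were 1 without TNIP2 Pulldown replicate 2 or Control Pulldown replicate 1 or 2. Over TNIP2 Input, iron genes called higher were 2 without TNIP2 Pulldown replicate 1 or 3 or TNIP2 Input replicate 2 or 3, and those called lower were 2 without TNIP2 Pulldown replicate 1. Without TNIP2 Pulldown replicate 3, glucocorticoid genes called higher were 2 in both comparisons, and those called lower over TNIP2 Input were 2. With the paired replicate block, iron genes and glucocorticoid genes called higher over TNIP2 Input were 2 each. Both comparisons share the TNIP2 Pulldown libraries, and the lists are described by their counts beside the shares of all genes given above.

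**Figure D4:**
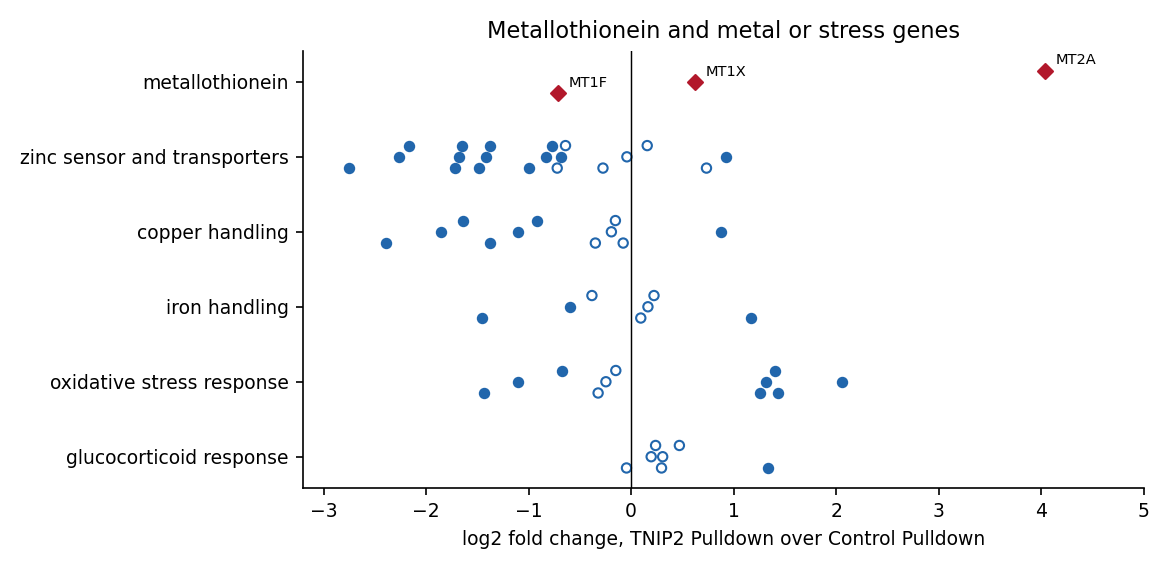
Log2 fold change of TNIP2 Pulldown over Control Pulldown for the 3 tested metallothionein genes (red diamonds, no call shown) and for genes of 5 lists; filled circles passed the test and open circles did not. MT2A stands at 4.04, while 13 of 20 zinc genes and 6 of 11 copper genes were called lower, beside 28.7% of all tested genes.

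Across the series, recovered depth was 10313160 to 29528698 reads in TNIP2 Pulldown, 8898497 to 16760624 in TNIP2 Input, 3591136 to 6404740 in Control Pulldown and 13795466 to 20793010 in Control Input, so low members are least precise in Control Pulldown. TNIP2 itself, whose reads may include the plasmid's fragment, had 51905, 69806 and 193013 normalized counts in TNIP2 Pulldown, 16750, 13318 and 46568 in TNIP2 Input, 1472, 309 and 391 in Control Pulldown and 278, 304 and 272 in Control Input. Replicate 3 held the most TNIP2 in both TNIP2 groups, and the lowest MT2A, MT1X and MT1F in TNIP2 Pulldown. Without both libraries numbered 3, the log2 change of MT2A over TNIP2 Input was 4.06. The line's markers LIN28B (635 to 2180) and VIM (3384 to 7416) were present in every library, while SOX11 stood at 0 to 9 and SALL4 at 18 to 43. Of the blood markers, HBB was at 0, PTPRC at 0 to 1, CD74 at 0 to 4 and LYZ at 5 to 21. Of the fibroblast, endothelium and liver markers, COL1A1 (15 to 86), APOA1 (2 to 23) and PECAM1 (2 to 9) were above 0 in every library, ALB reached 33, and COL1A2, DCN and VWF stayed between 0 and 6.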

How the data were processed

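RNA was measured by sequencing in 12 libraries. The authors deposited normalized counts and FPKM by gene symbol. The tools TopHat2 2.0.14 and DESeq2 1.6.3 and the build hg19 come from the submitters' processing notes. Not given in the sources used here: counter, strand setting and annotation. The deposited normalized counts are whole numbers already scaled by library, treated as a score and not as counts. From the deposited FPKM, whole reads and exonic lengths were recovered (all low values checked were whole within 0.1 reads; RefSeq lengths of 228 small RNA genes gave a median ratio of 1.00), and 1 read was worth 0.510 to 2.86 normalized counts. The column letter F was assigned to TNIP2 by elimination.

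Genes with 10 or more in at least 3 libraries (14627 of 25369) were fitted as log2(value + 1) in limma 3.58.1 (R 4.3.3), with lmFit, eBayes (trend) and 8 residual degrees of freedom. The code was tested on simulated data. Same-numbered TNIP2 Pulldown and TNIP2 Input libraries deviated together (r 0.369, 0.458 and 0.497), Control ones less (0.0774, 0.0744 and 0.0762). Differently numbered TNIP2 Pulldown and TNIP2 Input libraries had r from -0.447 to 0.274, and TNIP2 Input 3 with Control Input 1 had 0.328. The pairing of TNIP2 libraries by number was therefore inferred from the data and is not established. The members and lists were chosen with earlier results of these data known. Named are the 5 members, up to 4 genes of each list with the smallest p in TNIP2 Pulldown over Control Pulldown, and the 5 genes most correlated with MT2A. Alternatives changed the pseudocount, filter, unit, scaling, fit and libraries.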

Additional observations from a re-analysis of the deposited data

How the results depend on the processing

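MT2A kept its direction under the alternatives run: its log2 change ranged over 3.24 to 4.06 for TNIP2 Pulldown over TNIP2 Input, 3.70 to 4.28 over Control Pulldown, and 3.47 to 4.40 for the difference of enrichments. The number of MT1 genes called in TNIP2 Pulldown over TNIP2 Input was 0, and 1 with a pseudocount of 10, FPKM, voom on recovered reads, or the groups alone with a replicate block; it was 2 when libraries were centred on ribosomal protein genes, and 0 to 1 without 1 replicate. With a replicate block over all 12 libraries it was 0 (MT1F limma adjusted p = 0.0595). In TNIP2 Pulldown over Control Pulldown the number was 0, and 1 with ribosomal centring or without both TNIP2 libraries numbered 3 (an alternative chosen after seeing the data, as was the paired fit of the groups alone), and 0 to 1 without 1 replicate. In the comparisons without TNIP2 Pulldown it was 0 throughout. Ribosomal centring moved the median of all genes to -0.46 over TNIP2 Input and -0.30 over Control Pulldown, and calls to 2447 higher and 6006 lower (otherwise 4358 and 4145) and to 2970 and 5344 (otherwise 4481 and 4201); for the difference of enrichments they were 1509 and 4907 (otherwise 3301 and 2960). In it MT1X was at -0.80 (limma adjusted p = 0.0181) and MT1F at -1.55 (limma adjusted p = 0.00397) over TNIP2 Input. Over all alternatives the limma adjusted p ran over 0.00397 to 0.253 for MT1F and 0.0181 to 0.886 for MT1X in that comparison, and over 0.0356 to 0.728 for MT1F and 0.00244 to 0.381 for MT1X over Control Pulldown. Genes called lower in Control Pulldown over Control Input ranged over 12 to 44 and higher over 0 to 8.

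Directions turned, with the range without 1 replicate, for MT1X over TNIP2 Input (-0.53 to 0.048, highest without TNIP2 Pulldown replicate 3; 0.14 without both TNIP2 libraries numbered 3), MT1F in Control Pulldown over Control Input (-0.19 to 0.22, below 0 without Control Pulldown replicate 3, at -0.17, or Control Input replicate 1), SGK1 over TNIP2 Input (-0.59 to 0.069, highest without TNIP2 Input replicate 3; 0.12 without both TNIP2 libraries numbered 3) and ACO1 there (-0.48 to 0.065, highest without TNIP2 Pulldown replicate 2). Over Control Pulldown they turned for PER1 (-0.0039 to 0.57; -0.026 with ribosomal centring, -0.0039 without both libraries numbered 3) and DUSP1 (-0.016 to 0.38; -0.095 with ribosomal centring, -0.016 without both), both lowest without TNIP2 Pulldown replicate 3. Among values with no test, MT2A in TNIP2 Input over Control Input (-0.0080) was 0.039 without Control Input replicate 2, 0.17 without TNIP2 Input replicate 2 and 0.23 with ribosomal centring, and the difference of enrichments of MT1X was -0.081 with ribosomal centring. The cause was not tested. The replicate block changed no other call of a gene named here except TFRC over TNIP2 Input, called in the block over all 12 libraries (-0.46, limma adjusted p = 0.0307). The deposited values are not counts, and the planned count models edgeR and DESeq2 were not run on the reads recovered. The model run on those reads was voom. MT1F and Control Pulldown rest on the fewest reads, which limits their precision.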

Other observations

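In RefSeq's gene order on chromosome 16, the metallothionein cluster runs from MT4 to MT1X. The nearest tested genes are BBS2 and OGFOD1 before it and NUP93 and HERPUD1 after it. NUP93, a nuclear pore protein, rose in TNIP2 Pulldown by 2.09 over TNIP2 Input and by 2.17 over Control Pulldown on the log2 scale (limma adjusted p = 7.1e-08 and 4.6e-08). OGFOD1, a ribosomal protein hydroxylase, fell, at log2 changes of -1.09 and -1.049 (limma adjusted p = 0.00049 and 0.00065). BBS2, a protein of the cilium, rose by 0.58 and 0.53 (limma adjusted p = 0.0079 and 0.013), and HERPUD1, a protein of endoplasmic reticulum stress, was at 0.10 and 0.19 (limma adjusted p = 0.65 and 0.39). Of these 4 genes, 2 were called higher and 1 lower in each comparison, beside 58.1% of all tested genes called in either direction over TNIP2 Input and 59.4% over Control Pulldown.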
